A study of Mus musculus with 6 samples.

Results

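CD4+CD8+ double-positive thymocytes of a mouse carrying a Sox13 transgene were compared with those of wild-type littermates on the Affymetrix MG-U74Av2 array (U74A), the second experiment of a series on Sox13 in the thymus. These were 2 of the 6 arrays of the series, chosen by array type alone, with 1 array per genotype. The other 4 arrays are the Mu11K A and B pair of experiment 1. All mice were female C57BL/6 animals of 6 weeks. The transgenic group carried the Sox13 transgene and the control group was wild type, and neither group is labelled with any other allele or agent. The labels describe the wild-type cells as lacking expression of the endogenous Sox13 gene. The promoter that drives the transgene is not given in the sources used here. Each sort pooled the thymocytes of at least 2 mice, so an array is a pool and not an animal. With 1 array per genotype there is no replicate error and no test. Differences are given as values, and 2-fold is used only to count.

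Double-positive thymocytes are the stage at which immature T cells carry both coreceptors, rearrange the T cell receptor alpha chain and are selected. Most of them are small resting cells that follow a burst of division. Sox13 encodes a transcription factor of the SOX family, whose HMG box bends DNA, and it is known for its link to the gamma-delta T cell lineage. HMG-box factors of the TCF/LEF family act in the same cells and carry Wnt signals.

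Each array held 12422 probe sets after 66 control probe sets were left out. Intensities were scaled to a trimmed mean of 500 on each array, and values under a floor of 100 were set to it. Of the probe sets, 6721 lay above the floor in the transgenic sample and 6844 in the wild type, or 54.1% and 55.1%. The ratio of 3′ to 5′ control signal, a sign of RNA quality, was 1.36 and 1.58 for beta-actin and 0.766 and 0.792 for Gapdh. All 9 genes used as double-positive markers and carried by the array had a probe set above the floor in both samples. They include Ptcra, of the stage before, so not all of them are particular to this stage. Their summed level was 84219 in the transgenic and 90158 in the wild-type sample. Cd8a, a coreceptor chain, read 15638 and 17759, and Dntt, which adds bases to receptor joints, had 3 probe sets with log2 ratios from -0.22 to 0.17. In a bulk sample like these, fewer cells of a type and less RNA per cell cannot be told apart.

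The Sox13 probe set read 3832 in the transgenic sample and 599.6 in the wild type, a 6.39-fold difference. The transgenic sample was thus the one with the higher reading, as labelled. The wild-type reading lay above the floor of 100. Sox13 was the HMG-box gene with the largest ratio, and the other 13 measured genes of that list had log2 ratios from -0.50 for Tcf7l1 to 0.35 for Hmgb2.

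In all, 5377 genes had a probe set above the floor on at least 1 array. The genotypes read alike for most of them. The median log2 ratio of transgenic over wild type was -0.03 with an SD of 0.33 across genes, and 89.3% of genes lay within 0.5 of 0. Of the genes, 46 were 2-fold or more higher in the transgenic sample, or 0.855%, and 24 were 2-fold or more lower, or 0.446%. Among the higher genes 28 were above the floor on both arrays and 18 have only a lower bound, since the wild type was at the floor. Among the lower genes 15 were above the floor on both arrays, 8 have a bound and 1 mixed both kinds of probe set.

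**Figure D1:**
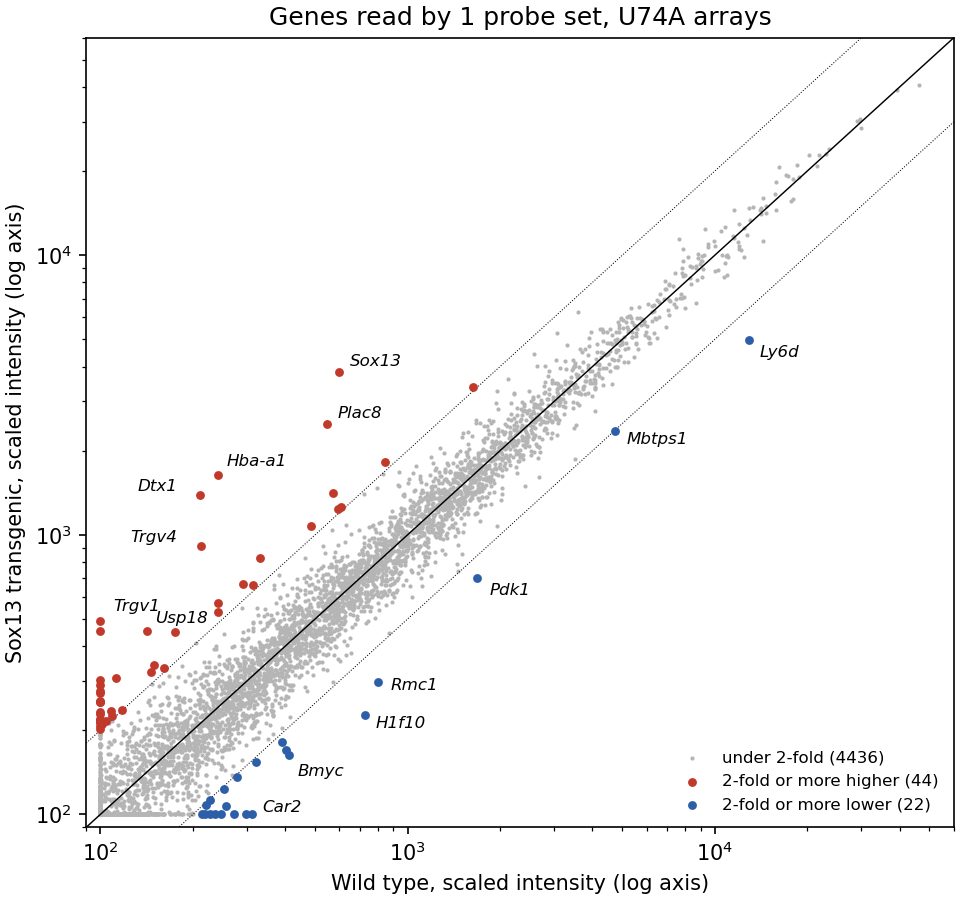
Scaled intensity in the wild-type sample (x axis, log scale) and in the Sox13 transgenic sample (y axis, log scale) for the 4502 genes read by 1 measured probe set, 1 point per gene, with values below the floor drawn at 100. The solid line marks equal readings and the dotted lines 2-fold; 44 of these genes lie past the upper and 22 past the lower dotted line, most of them at low intensities.

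Differences of this size were more frequent at low signal. Among the 1222 genes with a mean level of 100 to 200 the SD of the log2 ratio was 0.42, and 2.86% of genes were past 2-fold in either direction. Among the 700 genes with a level above 2000 the SD was 0.23, and 0.429% were past 2-fold. Genes with several probe sets give a second view of technical spread. Over 1182 pairs of probe sets of the same gene, in 875 genes, the median difference between their log2 ratios was 0.22, and 31 pairs differed by 1 or more. The line at 2-fold fell among close neighbours. On the higher side Cd7 was just past it at 1.00, and Dusp12 lay just under it at 0.999. On the lower side Mbtps1 was just past it at -1.01 and Smap2, the nearest under it of the genes above the floor on both arrays, was at -0.97. Rgs16, Strn4 and Sftpc, below the floor in the transgenic sample, were lower by at least 0.99 on the log2 scale and may lie past it.

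The gamma-delta lineage genes split into a few large differences and many small ones. These genes encode the T cell receptor gamma chain, its regulators and effector molecules of gamma-delta cells. Of 16 measured members, 6 were 2-fold higher and 0 were 2-fold lower, beside 0.855% and 0.446% of all measured genes, and the median log2 ratio was 0.07. The 6 include Sox13, the transgene itself, whose rise was set by the design, and Sox13 also enters the medians of this list. The list was chosen with these values known, and members at the floor in the wild type passed the filter through the transgenic sample alone. The array carried 2 receptor gamma segments by name. Trgv4 read 908.7 in the transgenic sample and 212.1 in the wild type, and was 4.29-fold higher. Trgv1 read 491.8 against an intensity below the floor, and was at least 4.92-fold higher. Both gamma segments were therefore several fold above the wild type in this pair of samples. In experiment 1, Trgv4 read 172.9 and 153.5, a log2 ratio of 0.17, so the size seen on U74A was not seen there. Gzma, a granzyme of cytotoxic lymphocytes, read 1262 and 605.2 and was 2.08-fold higher. S100a6, a calcium-binding protein gene, read 217.3 against a wild type below the floor, and was at least 2.17-fold higher. Blk, a Src-family kinase found in B cells and some gamma-delta cells, had 2 probe sets that disagreed, at least 3.60-fold and at least 1.15-fold. The members at the other end were Egr1 (673.7 and 902.6, log2 ratio -0.42), Id3 (1365 and 1809, -0.41), Cd27 (-0.32) and Egr2 (-0.27), which act downstream of receptor signals or in gamma-delta selection. Median values over the list depended on the low genes, and among the 11 members above the floor on both arrays the median was -0.11. The 3 NK markers carried by the array, Klrd1, Ncr1 and Prf1, were below the floor in both samples.

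The genes listed for the alpha-beta double-positive program differed little. Of 34 measured members, 0 were 2-fold higher and 0 were 2-fold lower, with 15 above 0 and 19 below. Their median log2 ratio was -0.01, beside -0.03 over all genes, and it took the opposite sign under median scaling (0.04). Ptcra, the pre-receptor alpha chain of the stage before, read 2247 and 1503, a log2 ratio of 0.58. The transcription factor gene Runx1 read 805.5 and 599.0, a log2 ratio of 0.43. Cd28, a costimulatory receptor gene, read 963.5 and 1302 (-0.43), and Cd4 read 5040 and 6496 (-0.37). Ptcra thus had the highest ratio of the list and Cd28 the lowest. The recombinase genes Rag1 and Rag2 had log2 ratios of -0.12 and 0.08, where the Rag1 value is from the probe set above the floor in both samples. The T cell receptor beta segments Trbv1 and Trbv13-2 had 0.00 and -0.09. Of the 4 measured alpha segments, picked by symbol after the values were seen, Trav12n-1 (303.3 and 399.6), Trav6-2 (147.9 and 192.5) and Trav9d-3 were lower, at -0.40, -0.38 and -0.11, and Trav19 (244.7 and 216.3) was higher at 0.18. Trav9d-3 had 3 probe sets and by far the most signal of the 4.

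Dtx1 stood apart from the rest of the Notch pathway. Notch receptors are cleaved when they bind ligand and then switch on target genes with Rbpj, and Dtx1 encodes Deltex, an E3 ligase that is itself a Notch target. Dtx1 read 1388 in the transgenic and 210.7 in the wild-type sample, and was 6.59-fold higher. Notch3 followed with 757.6 and 483.3, a log2 ratio of 0.65. For Notch1, the probe set with the higher signal had a log2 ratio of -0.00 and the other 0.60. The remaining 12 of the 15 measured members all lay below 0, from -0.07 to -0.39, beside 54.6% lower over all genes. Of these, Adam17 and Hey1 passed the filter through the wild type alone, so their direction was fixed by it. Among the targets Hes1 read 197.2 and 245.9 (-0.32) and Hey1 was below the floor in the transgenic sample, and Dtx2 read 736.3 and 953.1 (-0.37). The list median was -0.12, so Dtx1 was high while Hes1, Hey1 and Dtx2 were not.

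**Figure D2:**
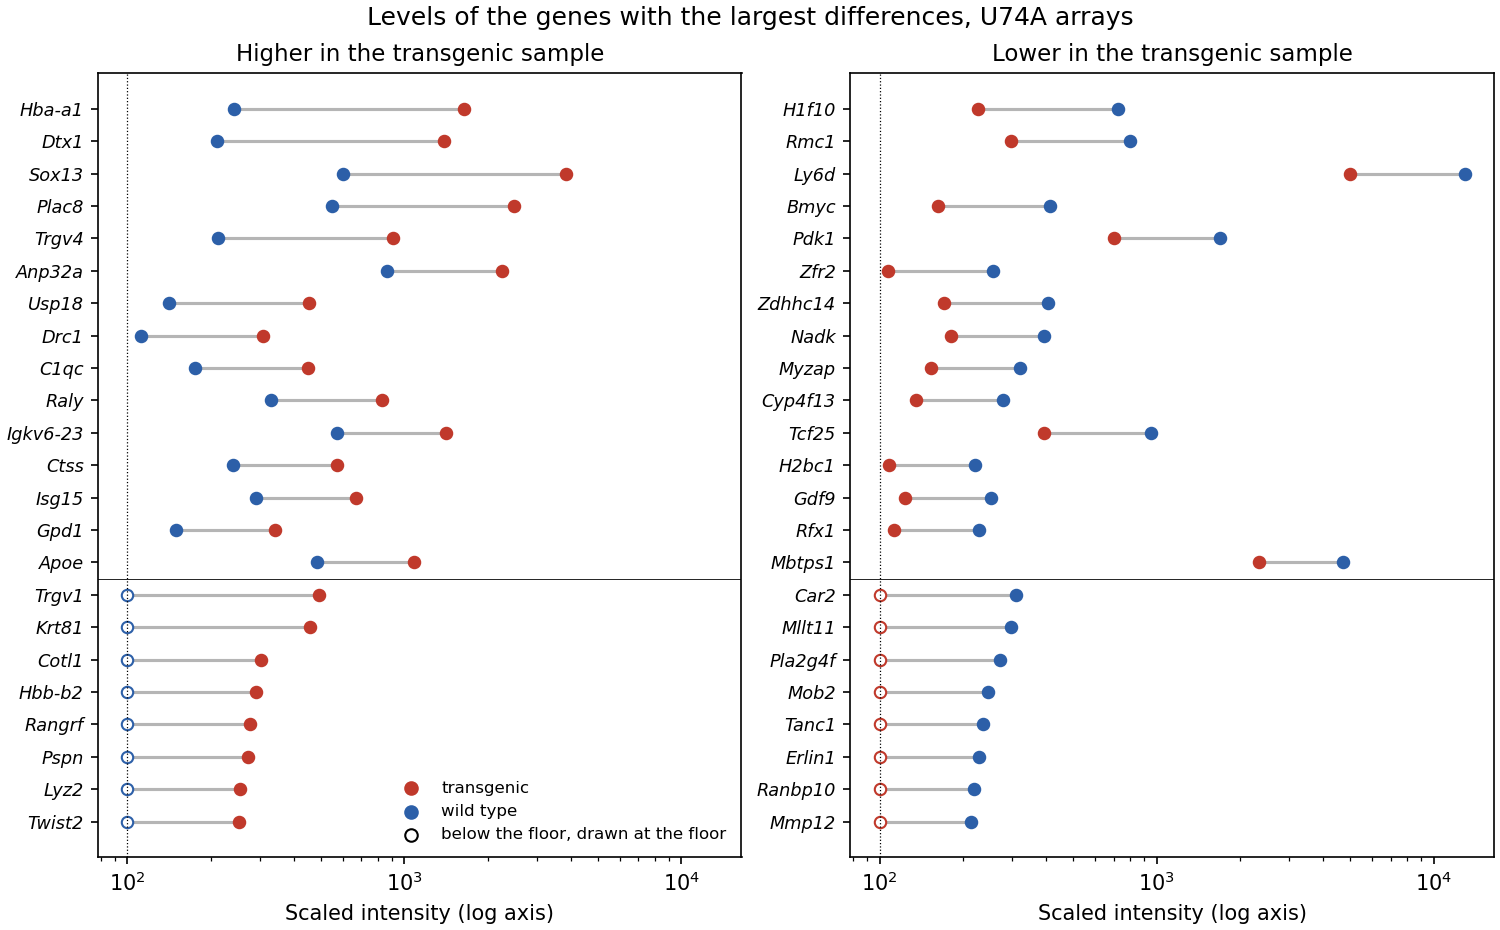
Scaled intensity (x axis, log scale) of the 15 genes above the floor on both arrays and the 8 genes at the floor on 1 array with the largest differences in each direction, with 1 red point for the transgenic and 1 blue point for the wild-type array. Open points at the dotted line were below the floor of 100, so the line from them shows a lower bound; Ly6d, at 4973 and 12931, is the only one of the lower genes above 5000 on an array.

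Globin genes and genes of macrophages were among the largest differences. Hba-a1, an alpha-globin gene, read 1642 and 242.4, 6.77-fold higher, and the beta-globin gene Hbb-b2 read 291.2 against a wild type below the floor, at least 2.91-fold higher. The other erythroid markers did not go with them, as Alas2 and Klf1 were below the floor in both samples and Slc4a1 read 92.0 and 106.6. Summed over the 5 erythroid markers carried, the level was 2136 and 477.4. The 3 chains of complement C1q, made mainly by macrophages, were all higher. C1qc read 449.7 and 174.8, 2.57-fold higher, and C1qa read 228.6 against a wild type below the floor, at least 2.29-fold higher. Of the C1qb probe sets, 1 had a log2 ratio of at least 1.31 and the other 0.58. Apoe, a lipid carrier gene expressed by macrophages, read 1079 and 484.3 (2.23-fold higher), and the lysozyme gene Lyz2 read 254.6 against less than the floor (at least 2.55-fold higher). The other myeloid markers were mixed. Cd68 was higher, with a log2 ratio of 0.63, and S100a8 was higher by at least 0.59 against a wild type below the floor. Cd14 was lower at -0.19. Csf1r read 104.2 and 193.7, a log2 ratio of -0.89, and a further Csf1r probe set was below the floor in both samples. Itgam, Adgre1 and S100a9 were below the floor in both samples. In all, 19 of 26 measured myeloid genes were higher and 7 lower, beside 45.4% higher over all genes, with a median of 0.30. On the higher side 4 were past 2-fold, beside 0.855% of all genes. Members at the floor in the wild type, Lyz2 and C1qa among them, passed the filter through the transgenic sample alone. Their direction was fixed by that filter. The median was 0.09 over the 15 above the floor on both arrays. The summed level of the 8 myeloid markers was 1035 in the transgenic and 840.0 in the wild-type sample, and the part of other cells in these differences was not tested. Over the 13 myeloid genes measured in both experiments the median was 0.31 here and -0.12 in experiment 1, where C1qc and Lyz2 had log2 ratios of -0.42 and -0.32.

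Genes of class II antigen presentation were higher in 9 of 12 cases, with a median log2 ratio of 0.29 and 3 past 2-fold, beside 45.4% higher and 0.855% 2-fold higher over all genes. Of the 3, H2-DMb1 was below the floor in the wild type, so it passed the filter through the transgenic sample alone. Class II molecules display peptides on B cells, dendritic cells, macrophages and thymic epithelium. H2-Aa, the class II alpha chain, read 661.4 and 313.1 (2.11-fold higher), and Cd74, the invariant chain, read 1402 and 723.9 (log2 ratio 0.95). Ctss, the protease that trims the invariant chain, read 570.3 and 241.0, 2.37-fold higher. H2-Eb1 and H2-Ab1 had log2 ratios of 0.62 and 0.46. Ciita, which switches these genes on, read 161.0 and 166.0 and did not go with them. The 8 members measured in both experiments had medians of 0.79 here and 1.27 in experiment 1. Plac8, a gene of mature lymphocytes and myeloid cells, read 2483 and 548.5 and was 4.53-fold higher. It led the list of mature single-positive genes, of which 13 of 16 were higher, with a median of 0.18. Lgals1 and Cd52 of that list had log2 ratios of 0.16 and -0.12, and Emb was the lowest at -0.53 (1397 and 2023).

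Immunoglobulin kappa segments read higher in the transgenic sample in most cases, and 13 of the 14 measured are not named on Mu11K. Of 16 variable kappa segments carried, 14 were measured, and 13 of these were higher and 1 lower, with a median log2 ratio of 0.50. Of the 13, 6 passed the filter through the transgenic sample alone, so their direction was fixed by it. The 6 segments above the floor on both arrays were all higher, with a median of 0.50. This family was picked after its values were seen, and its segments are similar in sequence, so that probe sets may share signal. Igkv6-23 read 1413 and 572.4 and was 2.47-fold higher. Igkv8-30 read 257.0 and 144.1, a log2 ratio of 0.83, while Igkv4-91 read 389.8 and 371.6, or 0.07. Ighm, the heavy chain of IgM, had 4 probe sets that disagreed, at 0.03, 0.26, 0.32 and 1.31, and the brightest of them, at 10560 and 10340, had the smallest ratio. Igha read 390.6 and 237.6 (0.72). Ighv1-54 had 0.53, and Ighd and Ighv5-12 had 0.05 and 0.08. Among the heavy chain genes Ighv3-6 was lower, at 116.5 and 207.8 (-0.835). The lambda constant segment Iglc1 was lower too, below the floor in the transgenic sample and 142.7 in the wild type. The B cell markers beside these values were mixed. Cd79a read 177.3 and 100.6, Cd79b 660.6 and 775.0, and Pax5 173.0 and 191.1, and Cd22 was below the floor in both samples. The Ms4a1 probe sets read 157.6 and 200.8 against a wild type below the floor, higher by at least 0.66 and 1.01 on the log2 scale. Ms4a1 passed the filter through the transgenic sample alone. Summed over the 5 B cell markers carried, the level was 1222 in the transgenic and 1199 in the wild-type sample, and the part of B cells in the kappa values was not tested.

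Interferon-induced genes were higher in 21 of 25 cases and lower in 4, beside 45.4% higher over all genes. The median log2 ratio was 0.14, and 2 were past 2-fold on the higher side, beside 0.855% of all genes. Ifitm3, Trim30a and Eif2ak2 were below the floor in the wild type and passed the filter through the transgenic sample alone. Their direction was fixed by that filter. Interferon-induced genes are switched on when cells meet interferon, and many limit viral growth. The effectors with the largest ratios were Usp18, which removes ISG15 from proteins (453.4 and 141.6, 3.20-fold higher), and Isg15 itself (668.9 and 291.7, 2.29-fold higher). Among the regulators, Irf9 read 1043 and 569.2 (0.87), Irf8 read 212.3 and 106.8 (0.99), and the Irf7 probe sets had log2 ratios of 0.51 and at least 0.78. Ifi27 read 4435 and 2574, a log2 ratio of 0.78. The exonuclease gene Isg20 read 294.8 and 160.2 (0.88), and Ifitm3 read 196.0 against a wild type below the floor (at least 0.97); Mu11K does not name either of them. Not all members went along. Igtp, a GTPase gene, read 884.0 and 1295 (-0.55), and Ifi204, Psmb9 and Tap2 were also lower. The receptor chains themselves differed in sign, with Ifnar2 at 0.64 and Ifnar1 at -0.40. On Mu11K 13 of 19 members were higher and 6 lower, and their median was 0.56.

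The Isg15 promoter is shown because it holds several copies of the IRF-type motif AANNGAAA. Motifs were searched on both strands, and matches may overlap each other. The sequence is the 160 bases before the transcription start, from RefSeq on GRCm38.p6 (chr4:156200819-156200978, minus strand), written 5′ to 3′ with matches in capitals.
Isg15: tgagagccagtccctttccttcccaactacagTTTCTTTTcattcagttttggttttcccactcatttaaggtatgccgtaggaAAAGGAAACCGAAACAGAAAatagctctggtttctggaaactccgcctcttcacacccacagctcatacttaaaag
The 4 matches begin 128, 76, 70 and 64 bases before the start, and the last 3 of them overlap. Over windows from 250 bases before to 50 after the start, 43.3% of the 30 windows of measured interferon genes held this motif, beside 17.5% of the 5644 windows of all measured genes. A gene with several starts has a window for each. The motif is short, and a match is not evidence of a site.

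**Figure D3:**
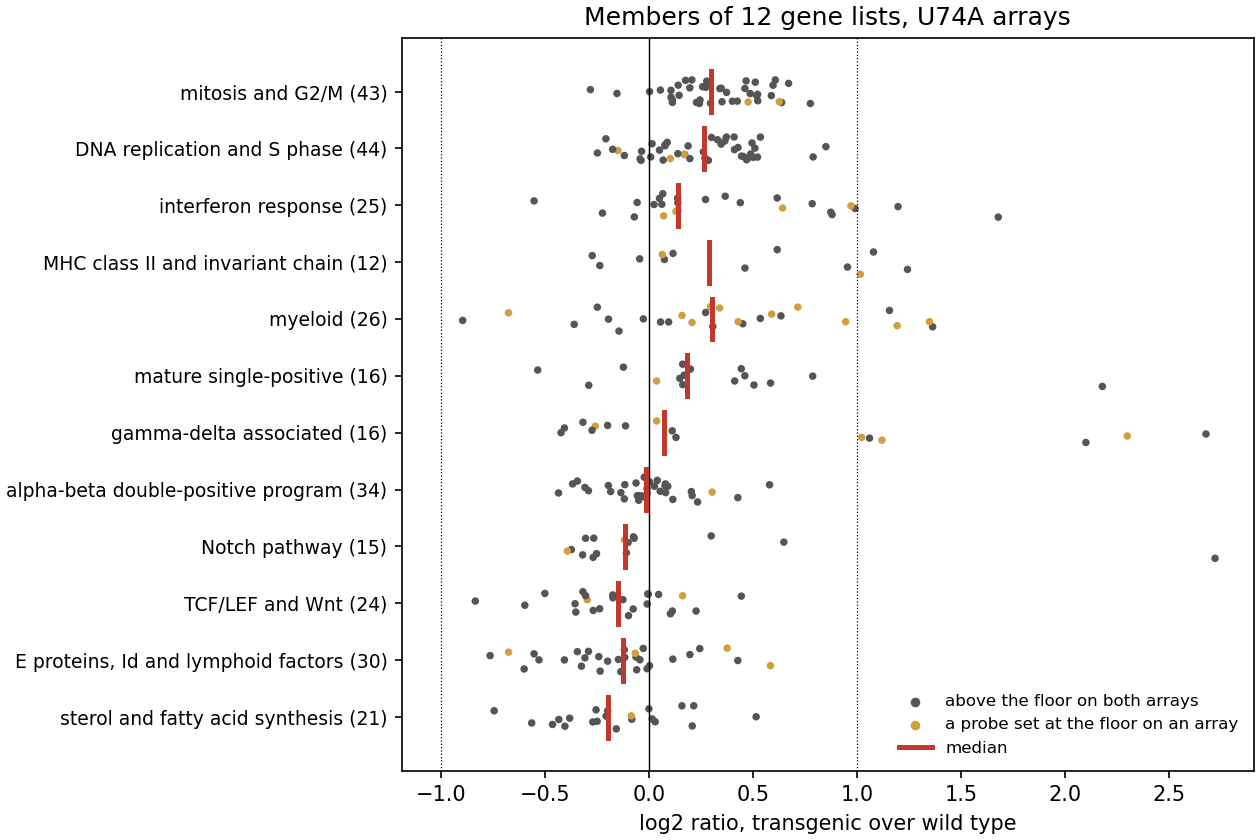
log2 ratio of transgenic over wild type (x axis) for the measured members of 12 gene lists (rows, number measured in brackets), 1 point per gene, with dark points for genes above the floor on both arrays, yellow points for genes with a probe set at the floor on an array, and a red bar at the median. Mitosis and S phase genes sit mostly between 0 and 0.8, with medians of 0.30 and 0.27, while the gamma-delta and Notch lists hold a few points far to the right of medians near 0.

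Genes of the cell cycle had small differences that nearly all lay on the same side. Of 43 measured genes of mitosis and G2/M, 41 were higher in the transgenic sample and 2 lower. Of 44 genes of DNA replication and S phase, 36 were higher and 8 lower. The medians were 0.30 and 0.27, with 0 members of either list past 2-fold, and 45.4% of all measured genes were higher. Both lists hold genes that rise together in dividing cells, so their members are not independent of each other. In the mitosis list H2az1, a histone variant gene, read 5259 and 3072 (0.78). The kinase genes Aurkb (1662 and 1044) and Ttk (598.2 and 384.5) had 0.67 and 0.64, and the cyclin gene Ccna2 (4034 and 2647) had 0.61. The condensin gene Ncaph had 2 probe sets at 0.49 and 0.70. The members with the most signal were the tubulin gene Tubb5 at 0.18 and Stmn1 at 0.20, followed by Ccnb2 (12462 and 9283, 0.42). Only Smc4 (-0.15) and Ube2c (-0.28) were below 0. In the S phase list the primase and polymerase alpha genes had the largest ratios, with Prim2 at 661.4 and 366.8 (0.85) and Pola1 at 1089 and 629.9 (0.79). Rrm1, a subunit of ribonucleotide reductase, had 0.54, the ligase gene Lig1 0.52, Prim1 0.51 and the histone mRNA binding gene Slbp 0.50. Pcna, the sliding clamp, read 5976 and 4960 (0.27), and Rrm2 had 0.08. Chaf1b (-0.25) was the lowest. With members of a level of 1000 or more only, the medians were 0.32 over 32 mitosis genes and 0.35 over 21 S phase genes, beside -0.01 over all 1569 genes of that level.

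The direction was not the same in experiment 1. Of the 36 mitosis genes measured in both experiments, 34 were higher on U74A, with a median of 0.30. On Mu11K 8 of them were higher and 28 lower, with a median of -0.47. Of the 34 S phase genes measured in both, 29 were higher on U74A and 17 on Mu11K, where the median was 0.03. Mki67, a proliferation marker named after its values were seen, read 2899 and 2390 on U74A (0.28) and 1444 and 8130 on Mu11K (-2.49). The experiments differ in array type and neither has a replicate. The series names Affymetrix software versions 4 and 5, and which of them made the Mu11K values is not given in the sources used here. Of 6508 and 6540 probe sets on the Mu11K A and B arrays, 1463 and 2301 had a value below 0, and 0 did on U74A. Array type, software and sample cannot be told apart here.

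**Figure D4:**
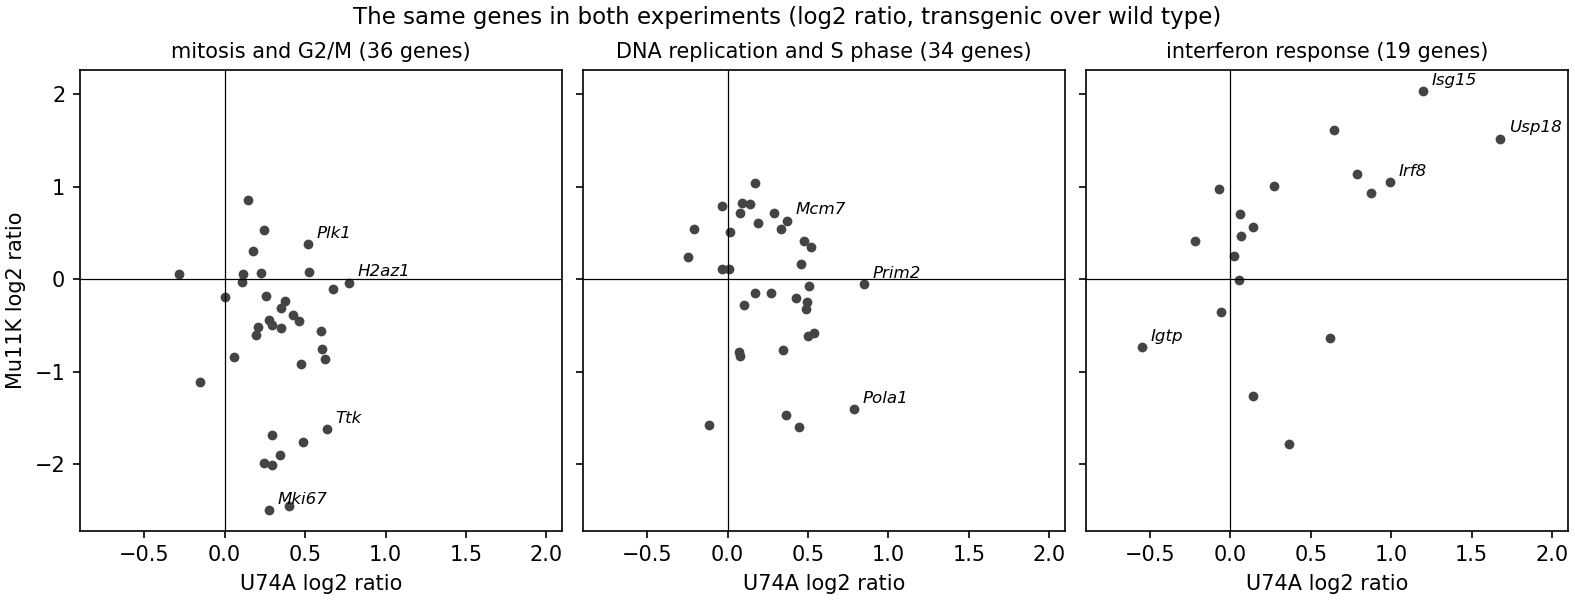
log2 ratio of transgenic over wild type on U74A (x axis) and on Mu11K (y axis) for the members of 3 gene lists measured in both experiments, 1 point per gene. Most mitosis genes lie right of 0 and below 0, with medians of 0.30 and -0.47, the S phase genes are spread around 0 on the Mu11K axis, and the interferon genes with the largest U74A ratios, Usp18 and Isg15, are high on both axes.

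Promoters of the cell cycle genes are shown for the motifs by which these lists are known. E2F factors bind TTTGGCGC and TTTCCCGC and act on S phase genes, and the cell cycle homology region (CHR) TTTGAA is read by the DREAM and MuvB complexes at mitotic genes. The genes were picked after the search for holding a match before the start. Each line gives the 160 bases before the start from RefSeq on GRCm38.p6, 5′ to 3′ on the gene's strand, with matches in capitals: Pola1 (chrX:93632156-93632315, minus), Cdc6 (chr11:98907991-98908150, plus), Mcm5 (chr8:75109349-75109508, plus) and Cdc20 (chr4:118437344-118437503, minus).
Pola1: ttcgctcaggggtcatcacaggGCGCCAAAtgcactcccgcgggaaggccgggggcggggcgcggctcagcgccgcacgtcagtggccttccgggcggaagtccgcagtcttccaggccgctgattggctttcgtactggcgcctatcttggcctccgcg
Cdc6: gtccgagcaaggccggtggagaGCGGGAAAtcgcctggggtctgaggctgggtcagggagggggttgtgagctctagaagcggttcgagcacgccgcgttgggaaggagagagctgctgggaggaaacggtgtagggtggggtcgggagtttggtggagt
Mcm5: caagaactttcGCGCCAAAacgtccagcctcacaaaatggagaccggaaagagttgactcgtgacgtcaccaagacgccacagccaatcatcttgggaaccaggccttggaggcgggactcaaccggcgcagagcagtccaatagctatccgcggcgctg
Cdc20: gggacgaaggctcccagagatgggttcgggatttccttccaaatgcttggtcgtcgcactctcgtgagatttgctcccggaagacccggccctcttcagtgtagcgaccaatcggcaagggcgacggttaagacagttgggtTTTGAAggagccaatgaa
The E2F letters begin 138 bases before the start in Pola1 and Cdc6 and 149 in Mcm5, and the CHR letters 18 bases before the start in Cdc20. On U74A, Cdc6 read 2116 and 1573 (0.43), Mcm5 4497 and 3688 (0.29) and Cdc20 9752 and 8844 (0.14). The E2F letters were in 26.5% of 49 S phase windows and 0 of 38 mitosis windows, beside 3.33% of windows of measured genes. The CHR letters were in 27 of 38 mitosis windows, or 71.1%, beside 18.4% of S phase windows, 675 of the 5644 windows of measured genes and 17.9% of all 32851 windows in the table. The SOX motif AACAAT was in 3 of 43 windows of the 2-fold higher genes, or 6.98%, in 0 of 27 of the 2-fold lower genes and in 5.63% for all measured genes. The TCF/LEF motif CTTTGA, which overlaps the CHR letters in CTTTGAA, was in 9.30%, 7.41% and 11.9%.

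Several lists had medians below 0 by small amounts. Over all measured genes 54.6% were lower, with a median of -0.03, and the counts stand beside that share. Of 30 measured genes of the E protein, Id and lymphoid factor list, 23 were lower and 7 higher, with a median of -0.13. Lmo4, a LIM adaptor gene, read 656.6 and 1114 (-0.76), the repressor gene Gfi1 read 1329 and 2013 (-0.60), and Tcf4, an E protein gene, read 351.7 and 515.5 (-0.55). Myb had 0.00 and Satb1 -0.34. In experiment 1, 22 of 25 members of this list were lower, with a median of -0.52. Of 24 genes of the TCF/LEF and Wnt list, 18 were lower, with a median of -0.15, and 0 were past 2-fold. The receptor genes Fzd4 (107.2 and 191.1) and Fzd3 (104.2 and 157.5) were close to the floor, with -0.83 and -0.60, while the corepressor genes Tle3 and Ctbp1 both had -0.35. Lef1 and Gsk3a had -0.01 and -0.00. In experiment 1 the 18 TCF/LEF and Wnt genes measured there had a median of 0.30, opposite in sign to the -0.15 found for the same genes here. Sterol and fatty acid genes were lower in 14 of 21 cases, not far from the share over all genes, with a median of -0.20. Abca1, which exports cholesterol, had 2 probe sets at -0.77 and -0.72, Dhcr7 read 195.6 and 288.9 (-0.56), and Mvd was the highest at 0.52. None of these members was past 2-fold.

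Among the 24 lower genes, H1f10, a linker histone gene, had the largest ratio above the floor, with 226.0 in the transgenic and 726.7 in the wild-type sample (3.22-fold lower). Ly6d, a GPI-linked surface protein gene of lymphocytes, read 4973 and 12931 and was 2.60-fold lower. It was the 1 gene past 2-fold of the 208 genes with a level above 5000 on an array, where the SD of the log2 ratio was 0.23. A further Ly6d probe set was below the floor in both samples. On Mu11K the gene went the other way, with 3641 and 1480. Pdk1, a kinase that restrains pyruvate dehydrogenase, read 699.5 and 1689 (2.42-fold lower), and Mbtps1, the site-1 protease that activates SREBP, read 2344 and 4719 (2.01-fold lower). Rmc1 read 297.4 and 801.6 (2.70-fold lower), and the palmitoyltransferase gene Zdhhc14 read 170.6 and 403.6 (2.37-fold lower). The bounds included Car2, a carbonic anhydrase gene (at least 3.11-fold lower), and Mllt11 (at least 2.98-fold lower), both below the floor in the transgenic sample. Their transgenic intensities of 99.6 and 90.3 lay close to the floor.

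Some of the 2-fold genes rest on probe sets that disagree. Anp32a, a histone chaperone gene, was 3.51-fold higher on average, but 1 probe set read 2794 and 261.8 (log2 ratio 3.42) and the other 1696 and 1466 (0.21). Tcf25 had probe sets at -1.62 and -0.44. Phf7 had 1 probe set at least 5.39-fold lower, below the floor in the transgenic sample, and another at 0.11, so its mean is a bound too. With Blk, these were the 4 genes past 2-fold with several measured probe sets, and in 0 of them were all probe sets past 2-fold. For 15 of the 70 genes the 2-fold difference was lost once probe sets of the gene that lay at the floor in both samples were averaged in. Krt81 was among them at 0.55, Ly6d at -0.69, Lyz2 at 0.67 and Apoe at 0.58. Other genes had probe sets that lay close together. Rangap1, which drives the Ran cycle of nuclear transport, had 0.81 and 0.88, and Mcm3, a subunit of the replicative helicase, 0.47 and 0.51. On the lower side, Srpr, a subunit of the signal recognition particle receptor, had -0.69 and -0.54, and the receptor gene Lrp10 -0.50 and -0.48.

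U74A named genes that Mu11K does not. Of the 5377 measured genes, 1496 had no probe set with their symbol alone on Mu11K A or B. A Mu11K probe set with no symbol, or with several, could still read some of them. These genes had 7 members 2-fold or more higher, or 0.468%, and 4 lower, or 0.267%, where the other 3881 had 39 and 20, or 1.00% and 0.515%. Under median scaling the added genes had 10 higher and 2 lower, and after loess 12 and 3. The SD of the log2 ratio was 0.32 and 0.34. At the floor used here, differences past 2-fold were thus less frequent among the genes added by U74A on this pair of arrays. The counts depended on the floor. With a floor of 50, 27 of 97 higher genes and 16 of 81 lower genes were not named on Mu11K. The added genes were 1496 of the 5377 measured at the floor used here. How many of the 6297 genes measured at a floor of 50 were added by U74A was not counted. Whether differences past 2-fold were less frequent among them at that floor therefore cannot be said. The share was not tested.

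Of the 7 higher genes, Sypl, which encodes a synaptophysin-like vesicle protein, read 1830 and 842.8 (2.17-fold higher), and Igkv6-23 is described above. The RNA-binding protein gene Pcbp4 read 210.9 and 101.0, with the wild type next to the floor (2.09-fold higher). Krt81, a hair keratin gene (at least 4.55-fold), Cotl1, which encodes the actin-binding coactosin-like protein (at least 3.04-fold), and Pspn, which encodes the neurotrophic factor persephin (at least 2.72-fold), were higher against a wild type below the floor. The seventh is annotated to a microRNA gene, which a probe set for messenger RNA does not measure, and is not named. Just under the line were Chtf8, a subunit of a clamp loader (1656 and 833.0, 0.99), Yif1a, of vesicle transport (721.4 and 381.1, 0.92), and Blvra, biliverdin reductase (313.5 and 167.2, 0.91).

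The 4 lower genes were Bmyc (162.8 and 412.3, 2.53-fold), a relative of Myc, Nadk (180.9 and 391.7, 2.17-fold), which makes NADP, Cyp4f13 (135.6 and 278.7, 2.05-fold) and Tcf25 (2.04-fold on average). The next among those above the floor on both arrays included Taf1c, of the RNA polymerase I machinery (445.3 and 870.4, -0.97), Laptm4b (204.0 and 391.7, -0.94), the receptor gene Igf1r (119.7 and 224.7, -0.91), Zkscan14 (786.6 and 1450.4, -0.88) and the vesicle coat cargo receptor gene Tmed9 (852.4 and 1507, -0.82).

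**Figure D5:**
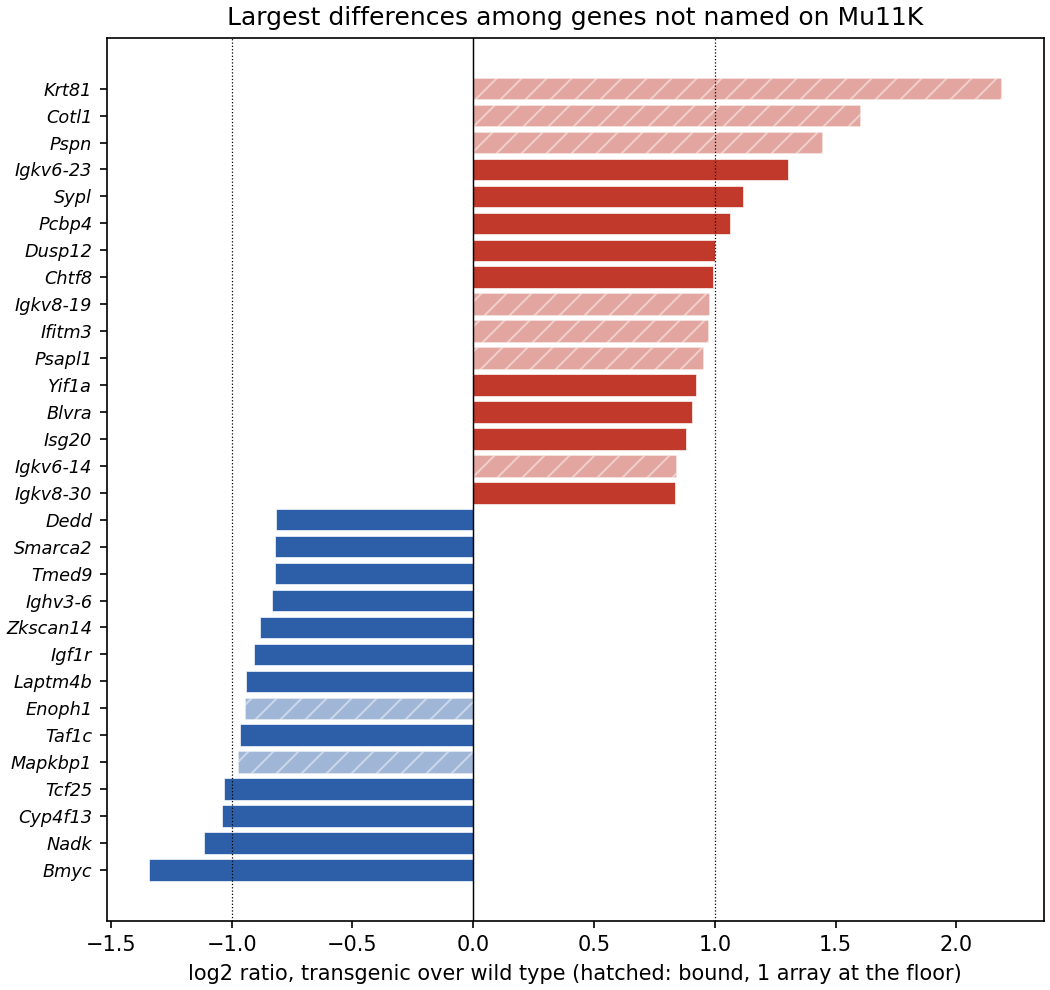
log2 ratio of transgenic over wild type (x axis) for the genes not named on Mu11K that were past 2-fold and the next 10 in each direction (rows), 1 bar per gene from 1 pair of arrays, without the gene annotated as a microRNA. Hatched bars are bounds with a probe set at the floor on an array, and dotted lines mark 2-fold; 6 bars pass it on the higher and 4 on the lower side.

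The 2-fold genes were also read in experiment 1, whose samples did not enter the choice. Of the 46 higher genes, 32 were measured there. Of these 23 were higher on Mu11K too, 14 of them by 2-fold or more, with a median of 0.60. Of those 14, 8 were above the floor in both Mu11K samples and the others have a probe set at the floor. Over all 3237 genes measured in both experiments, 46.9% were higher on Mu11K and 5.65% were 2-fold higher there. Of the 24 lower genes, 14 were measured on Mu11K, where 10 were lower too, 2 of them by 2-fold, with a median of -0.39, beside 53.1% lower and 389 of 3237 genes 2-fold lower over all genes measured in both. Of the 3237 genes, 1757 had the same sign in both experiments, or 54.3%. Those not higher on Mu11K included Anp32a (-0.37) and Twist2 (lower by at least 0.72 on the log2 scale, with the transgenic sample below the floor), and H1f10 was higher there (0.80). Whether the experiments used separate sorts is not stated in the labels.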

How the data were processed

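RNA of sorted double-positive thymocytes was measured on 1 transgenic and 1 wild-type U74A array. The deposited values are linear intensities, 1 per probe set, made by the authors with Affymetrix software; the submitters' processing notes name MAS version 5 for U74A, the series text names versions 4 and 5 without saying which made the Mu11K values, and the scaling target is not given in the sources used here. Before scaling, the transgenic and wild-type intensities had 2% trimmed means of 248.5 and 248.5 and medians of 65.5 and 68. Precision is limited by the number of arrays, and detection calls were not used.

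AFFX control probe sets were dropped, the rest of an array was multiplied so that its 2% trimmed mean became 500, anything under 100 was raised to 100, and ratios were formed as log2 of transgenic over wild type. Where a sample was at that floor, the fold is a bound and "at least" is written. Of the probe sets, 10833 had 1 gene symbol, 396 several and 1193 none in the platform annotation, and a check against RefSeq changed 0 names. A gene's value is the mean log2 ratio of its single-symbol probe sets that passed the floor in either sample, and levels of genes with several are means of their intensities. Level classes use the geometric mean of both arrays after the floor was applied. Experiment 1 (Mu11K) was processed in the same way and is quoted only beside U74A results.

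Named genes are Sox13, the 15 largest ratios per direction above the floor, the 8 largest bounds per direction, the 2-fold genes not named on Mu11K with the next 10, genes with several probe sets of the same sign, up to 6 members of a list with the largest ratios plus the 2 with the most signal, and any gamma-delta, alpha-beta, Notch, interferon or marker gene. Others were named after their values were seen. The 40 gene lists and this rule were chosen with earlier results of these data known. Lists are described by counts and medians, with no test. Promoter windows came from RefSeq on GRCm38.p6, where 4372 of the 5377 measured genes matched by symbol. The calculation was tested on simulated arrays with known changes. Python 3.11.15, pandas 2.3.3, numpy 2.4.6 and statsmodels 0.14.6 (loess) were used. Alternatives were other floors, scalings, filters and probe set rules.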

Additional observations from a re-analysis of the deposited data

Results flagged for a closer look

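Ly6d differed between the experiments. Its log2 ratio was -1.38 on U74A, with 4973 in the transgenic and 12931 in the wild-type sample, and 1.30 on Mu11K, with 3641 and 1480. Each array gave a reading far above the floor. The difference between the experiments was not tested, since each has 1 pair.

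The mitosis and G2/M list had a median log2 ratio of 0.30 on U74A and -0.47 on Mu11K over the 36 genes measured in both. The myeloid list had 0.31 and -0.12 over 13 genes. Neither difference was tested.

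Of 460 measured probe sets with no gene symbol, which entered no count of genes, 3 were 2-fold higher and 3 lower. Above the floor on both arrays, 96971_f_at was 3.03-fold higher (465.0 and 153.5), 93078_at 2.63-fold higher (658.4 and 250.3), 94977_at 2.76-fold lower (344.3 and 951.7) and 95887_at 2.02-fold lower (176.7 and 357.7). Of 256 probe sets with several symbols, 11 were 2-fold higher and 0 lower, with no test in either group of probe sets. Over all 7109 measured probe sets, 69 were 2-fold higher and 40 lower.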

How the results depend on the processing

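No paired analysis was possible because each genotype has 1 U74A array. The Sox13 log2 ratio lay between 2.65 and 2.73 over the 8 alternatives. The counts of 2-fold genes, 46 higher and 24 lower, followed the floor: with a floor of 50 there were 97 and 81, of them 27 and 16 not named on Mu11K, and with a floor of 200 there were 22 and 8, of them 4 and 2 not named. With probe sets above the floor on both arrays only, there were 28 higher and 15 lower, and 4 higher genes not named on Mu11K. Median scaling left 2 lower genes not named on Mu11K, and loess gave 12 higher. A lower floor admits more dim probe sets, and a higher floor turns differences into bounds. Of the 46 higher genes, 46 stayed past 2-fold under median, quantile and loess scaling, and of the 24 lower genes 18, 20 and 20 did. Median scaling moved the median of all genes by 0.05. Of the 40 list medians, 0 changed sign from a size of 0.1 or more. The mitosis median ranged from 0.30 to 0.35, S phase from 0.19 to 0.32, interferon from 0.03 to 0.21, class II from 0.12 to 0.46, and the myeloid median from 0.00, without a filter, to 0.37. For the gamma-delta list the range was -0.11 to 0.12. Without the members shared with the S phase and mitosis lists, an alternative chosen after seeing the data, the histone and chromatin median was 0.16 over 27 genes, against 0.17. Above a level of 1000 the interferon median was 0.06 over 8 genes, against 0.14.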

Other observations

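The counts that follow stand beside 45.4% higher and 54.6% lower over all measured genes. Genes of oxidative phosphorylation, of which 15 are not named on Mu11K, had a median log2 ratio of 0.09 over 48 genes, with 31 higher. Proteasome genes had 0.11 over 30 genes, with 19 higher, and heat shock and chaperone genes 0.13 over 33 genes, with 20 higher. Cytokine receptor and JAK-STAT genes were lower in 21 of 30 cases, with a median of -0.08. In that list the kinase gene Jak2 read 331.0 and 530.8 (-0.68) and the signal transducer gene Stat5b read 855.8 and 1329 (-0.63), while the inhibitor gene Socs3 read 519.9 and 299.1 (0.79). Homing and adhesion genes were lower in 16 of 22 cases, with a median of -0.09. Members below the floor in 1 sample had their direction fixed by the filter. Among these were Il6ra, Il7r and Ndufs4 (higher) and Il2rb, Pias3 and Ccr4 (lower). None of these lists held a gene past 2-fold.

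Among the genes with a level above 5000 on an array, the largest ratios after Ly6d were those of Ube2s, a ubiquitin-conjugating enzyme gene of mitosis (6270 and 3583, 0.81), and H2az1. Both samples are labelled female, and the Xist and Kdm5d probe sets were below the floor in both, so they do not check that label.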
